A study of Coffea canephora with 12 samples.

Results

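Somatic embryogenesis (SE) is the route by which cells of a differentiated organ, here the leaf of *Coffea canephora* (Robusta coffee), turn into embryos without fertilization. It is driven in culture by plant growth regulators (PGRs), of which auxins and cytokinins are the main classes, and embryogenic structures form on the explant. In coffee the donor plantlets are first pretreated with an auxin and a cytokinin, and leaf pieces are then moved to an induction medium that holds a cytokinin.

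The comparison described here sets the end of the induction stage that was sampled, 21 days after induction (dai), against the untreated leaf, 14 days before induction (dbi). Its members are 4 of the 12 RNA-seq libraries, 2 per time point, chosen by their titles. The 18 genes of the *CcGH3* family, whose relatives in *Arabidopsis thaliana* link auxin or jasmonic acid to amino acids, were left out of the counts of called genes. They stayed in the totals of reads, and those that passed the filter on low counts stayed in the fit. Of 25574 genes listed, 20745 passed this filter, and the 20728 of them outside the family are the genes tested below. The libraries of 14 dbi came from leaves of in vitro plantlets on Murashige and Skoog salts with no PGR. Between the compared points lay 4 others. At 9 and 0 dbi the plantlets grew with naphthaleneacetic acid, an auxin, and kinetin, a cytokinin. At 1 and 2 dai, as at 21 dai, leaf explants were held in liquid Yasuda medium with benzyladenine, a cytokinin, in the dark. Samples of 14 dbi and 21 dai thus differed in wounding, salts, PGR, liquid culture, light and age at once, and the parts these took cannot be told apart. By the series record, both libraries made at a given point are repeat sequencing of the same biological material, so every p-value below measures only the spread between these libraries. In a bulk sample, fewer cells of a type and less RNA per cell cannot be told apart either. The gene IDs came without names, descriptions or protein sequences in the sources used here, so that genes are given by ID with no role, and the leaf label was not checked against marker genes.

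Reads in genes numbered 15209282 and 26414332 in the 14 dbi libraries and 10091539 and 30875717 in the 21 dai libraries, against 10091539 to 36525500 over all 12. A count of 0 therefore allows up to 0.297 counts per 1000000 reads in genes (CPM) in the shallowest library and 0.0821 CPM in the deepest, from counting error only. Replicate 1 of both time points, like replicate 1 of 0 dbi and of 2 dai, held more reads of low mapping quality (17.6% to 20.3%) than the other 8 libraries (11.2% to 12.7%). The 21 dai replicate 1 library stood lowest in the share of reads that fell in genes, at 29.2%. Libraries of one time point differed beyond sampling noise, and their log2 CPM correlated over genes at 0.907 at 14 dbi and 0.937 at 21 dai.

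The explants at 21 dai carried a transcriptome with 2847 genes called against the untreated leaf, at a Benjamini-Hochberg adjusted p under 0.05 in edgeR's quasi-likelihood test. Of the genes tested, 1310 (6.32%) were higher at 21 dai and 1537 (7.42%) were lower, so that 46.0% of the calls were rises and 54.0% were falls. This balance was not stable, since rises were 51.7% of the calls with DESeq2, 55.4% with edgeR's bias-adjusted form, 50.4% with the 4 compared libraries alone and 29.2% without 14 dbi replicate 2. The genes called higher moved from a median of 8.31 CPM at 14 dbi to 70.4 CPM at 21 dai. The genes called lower went the other way, from 83.2 to 13.2 CPM, while the median over all genes tested was 17.7 CPM at 14 dbi and 18.5 CPM at 21 dai. Without any test, a difference of at least 2-fold with no overlap between the libraries of both points was seen for 20.9% of all genes tested in the upward direction and 17.4% in the downward one.

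The number of calls rested heavily on each library. Leaving out replicate 1 or replicate 2 of 14 dbi left 673 and 426 genes called higher and 1100 and 1032 called lower. Leaving out replicate 1 or replicate 2 of 21 dai left 321 and 619 called higher and 514 and 817 called lower. Calls that stood whichever one of these 4 libraries was left out numbered 245 among the genes called higher (18.7%) and 478 among those called lower (31.1%). With only the 8 libraries of low share of poorly mapped reads, in which each compared point has 1 library, 250 and 407 genes were called. No called gene changed sign under any alternative tried. Every alternative reused some or all of the 4 compared libraries, which rarely overlapped for these genes, so a change of sign was hardly possible.

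Fold sizes were large in both directions, and the upward tail held more genes. Genes called higher had a median log2 fold change of 3.16, with the middle of the distribution from 1.82 to 5.63, and genes called lower had a median size of 2.70, from 1.88 to 3.97. The median size over all genes tested was 0.897, and the median standard error of the called genes was 0.64 upward and 0.51 downward. At least a 4-fold change was seen in 925 of the genes called higher (70.6%) and 1087 of those called lower (70.7%). At 16-fold or more the numbers were 526 (40.2%) and 381 (24.8%), and at 64-fold or more 294 (22.4%) and 110 (7.16%). Of the genes called higher, 296 lay under 1 CPM in both 14 dbi libraries, and 125 of those called lower did so at 21 dai. Folds of such genes rest on few counts at 1 of the points, so their sizes are inexact. Their part in the fuller upward tail was not tested. The smallest called changes were 0.90 upward and 0.95 downward on the log2 scale. Genes of at least 100 CPM rose in number from 58 to 479 among those called higher, and went from 637 to 49 among those called lower. The test weighs the fold against the spread between libraries, so called genes have folds that are large beside it by choice. For the genes called higher the median gap between libraries was 0.45 at 14 dbi and 0.48 at 21 dai on the log2 scale. For those called lower it was 0.52 and 0.44, and over all genes tested 0.53 and 0.49.

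**Figure D1:**
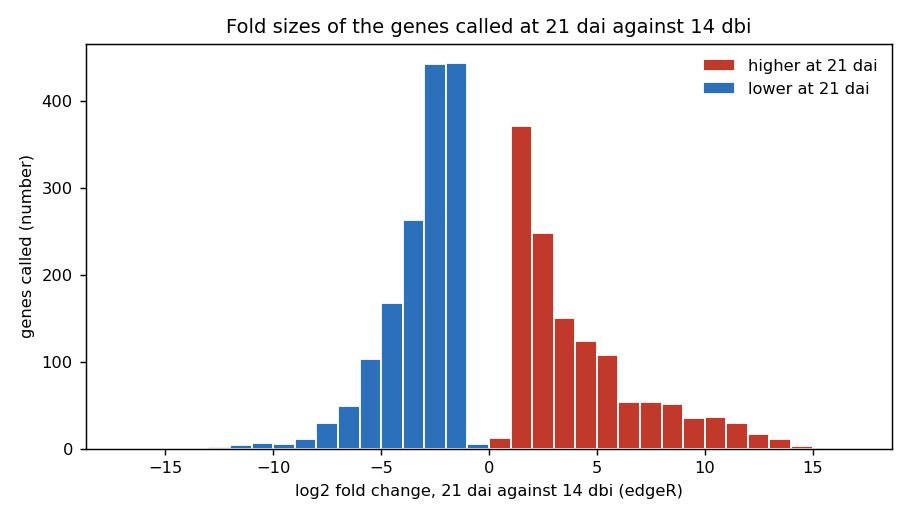
Histogram of the log2 fold change (x axis, 1 unit per bar) of the 2847 genes called at 21 dai against 14 dbi, with the number of genes on the y axis. Red bars are the 1310 genes called higher and blue bars the 1537 called lower. The upward side holds 294 genes at 64-fold or more against 110 on the downward side. Large folds of genes with few counts at 1 of the points are inexact.

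Changed genes took a large part of all reads at the point where they were high. The genes called higher held 3.03% and 3.13% of the reads in genes in the libraries of 14 dbi, and 22.8% and 20.7% in those of 21 dai. The genes called lower held 29.9% and 25.6% at 14 dbi, and 3.25% and 3.85% at 21 dai. These shares describe genes chosen on the same libraries, and no test was made. The remaining genes, not called, held 67.0% and 71.3% of reads at 14 dbi and 73.9% and 75.4% at 21 dai. Few genes dominated either state. The 10 genes called higher with the most reads rose from 0.113% and 0.131% of reads to 5.20% and 4.37%, and the 10 called lower with the most reads went from 5.68% and 3.37% to 0.148% and 0.139%. The number of genes that together held 50% of the reads was 1194 and 1618 at 14 dbi and 1296 and 1718 at 21 dai.

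In the libraries between, the shares moved in 1 large step at the change from plantlet to explant. At 9 dbi the genes called higher held 4.71% and 3.96% of reads, and at 0 dbi 3.28% and 4.39%. After induction they held 11% and 11.3% at 1 dai and 11.2% and 11.6% at 2 dai, about midway to the level of 21 dai. The genes called lower held 21.5% and 30.4% at 9 dbi and 28.1% and 27.9% at 0 dbi, then 8.74% and 8.91% at 1 dai and 8.32% and 8.28% at 2 dai. Median levels had the same shape. For the genes called higher, the median was 8.70 and 6.84 CPM at 14 dbi, 8.91 and 11.9 CPM at 0 dbi, 25 and 26.4 CPM at 1 dai, 28.4 and 29.8 CPM at 2 dai, and 75.9 and 64.7 CPM at 21 dai. For those called lower it was 79.3 and 78.6 CPM at 14 dbi, 81.4 and 81.7 CPM at 0 dbi, 28.2 and 28.3 CPM at 1 dai, 29.2 and 28.2 CPM at 2 dai, and 11.6 and 13.9 CPM at 21 dai.

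**Figure D2:**
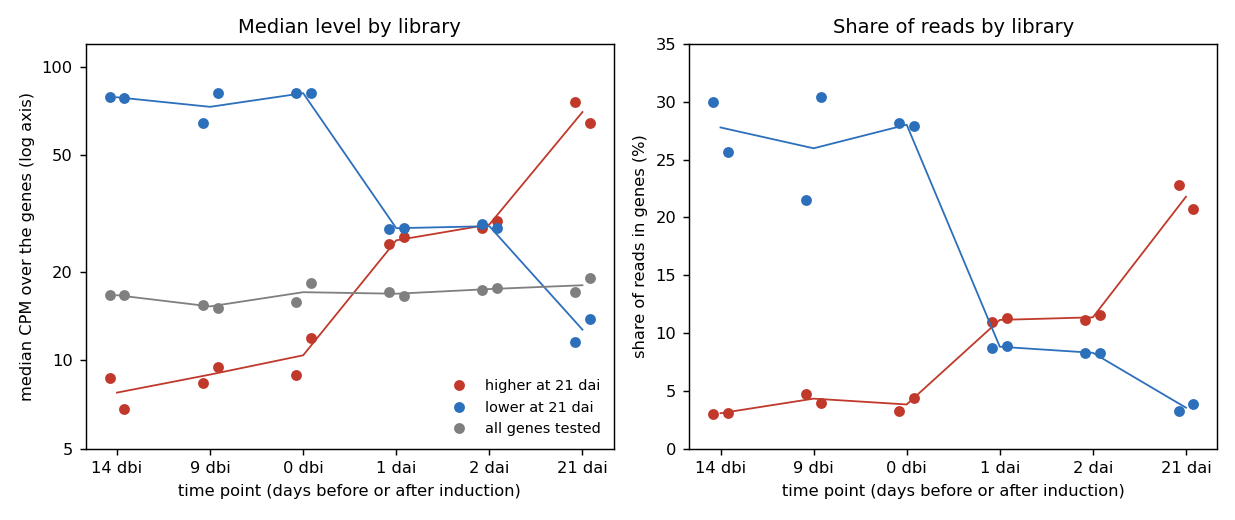
Left, median CPM (log axis) over the genes called higher (red), the genes called lower (blue) and all genes tested (grey) in each of the 12 libraries; right, the share of reads in genes (%) held by the genes called higher and lower. Each point is 1 library, lines join the means of the 2 libraries of a time point, and the x axis gives the 6 time points in order, not to scale. Both sets move between 0 dbi and 1 dai and hold nearly level to 2 dai. They lie furthest out at 21 dai, on which they were chosen, where the genes called higher reach 22.8% and 20.7% of reads.

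The point at which each change first showed was read as the earliest point with a mean log2 difference from 14 dbi of at least 1 in the direction of 21 dai and with both libraries beyond both 14 dbi libraries. The comparisons at the 4 points share the 14 dbi libraries with the comparison that chose the genes. Among the genes called higher, 116 (8.86%) first showed at 9 dbi, 76 at 0 dbi, 560 (42.7%) at 1 dai and 131 at 2 dai, while the other 427 (32.6%) showed at none of these 4 points. Among the genes called lower, 225 (14.6%) first showed at 9 dbi, 23 at 0 dbi, 839 (54.6%) at 1 dai and 120 at 2 dai, and the other 330 (21.5%) at none of the 4. At 21 dai itself the rule was met by 1296 of the 1310 rises and 1530 of the 1537 falls. By this rule the first day after induction held more of the first appearances than any other point between.

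Appearances at 9 dbi were mostly not seen at 0 dbi. Of the 116 rises seen at 9 dbi, 35 were also seen at 0 dbi, and 23 at all of 0 dbi, 1 dai and 2 dai. Of the 225 falls these numbers were 72 and 67. Of the changes that first showed at 0 dbi, 56 of 76 rises and 18 of 23 falls were seen at both 1 and 2 dai. This asks for fewer later points than at 9 dbi, so the shares are not alike. The same was not counted over all genes tested. Likewise 474 of the 560 rises that first showed at 1 dai were also seen at 2 dai, as were 715 of the 839 falls. At 9 dbi 8.86% of the genes called higher showed the rise, against 5.11% of all genes tested, and 14.6% of those called lower showed the fall, close to the 13.7% of all genes tested. At 0 dbi, 111 members (8.47%) showed a rise and 95 (6.18%) a fall, against 3.17% and 3.33% of all genes tested. At 1 dai the members stood further apart from the rest, with 700 (53.4%) higher and 1053 (68.5%) lower against 16.0% and 19.5%. At 2 dai 750 (57.3%) were higher and 1056 (68.7%) lower against 13.1% and 12.7%.

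Calls by the same edgeR test were fewer at each point, and 1 dai held more of them than 2 dai. At 9 dbi 2 of the members were called higher and 18 lower, where all genes tested held 7 (0.0338%) and 104 (0.502%). At 0 dbi no gene was called in either direction (0.0% and 0.0% of all genes tested). Of the 20728 genes tested, 412 were higher and 381 lower there at an unadjusted edgeR p under 0.05. Unchanged genes also reach such a p, so these numbers by themselves show no change. DESeq2 called 26 higher and 22 lower at 0 dbi. At 1 dai 422 members were called higher and 661 lower, against 4.87% and 5.85% of all genes tested. At 2 dai 324 and 467 were called, against 2.12% and 2.82%. A further 833 of the 1310 genes called higher and 805 of the 1537 called lower had no call in their direction at any of the 4 points. The other 1209 became 490 and 457 without replicate 1 or 2 of 1 dai, 723 and 718 without replicate 1 or 2 of 2 dai, 580 and 626 without those of 14 dbi, and 556 and 715 without those of 21 dai.

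**Figure D3:**
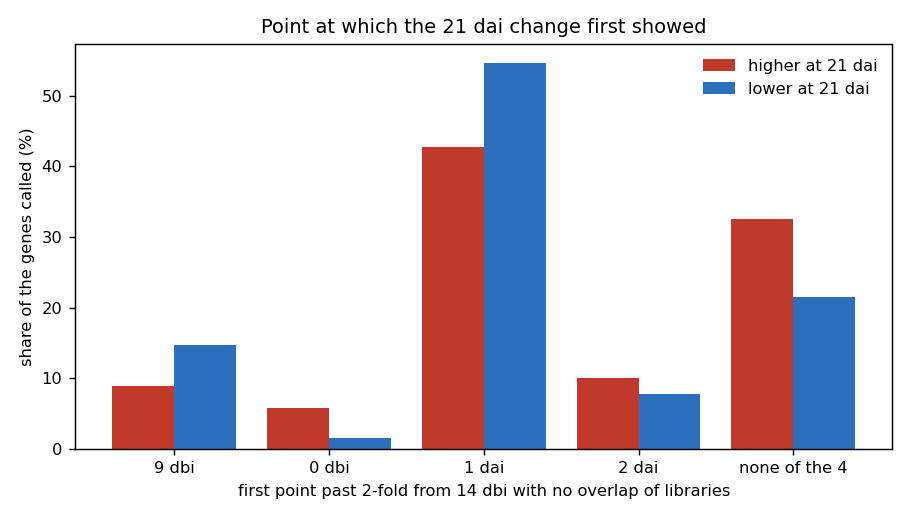
Share (y axis, %) of the 1310 genes called higher (red) and the 1537 called lower (blue) at 21 dai, by the first time point at which the change of at least 2-fold showed with no overlap of libraries. The tallest bars are at 1 dai, 42.7% and 54.6%, followed by the genes that showed it at none of the 4 points before 21 dai, 32.6% and 21.5%.

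A contrast of the mean of 1 and 2 dai against the mean of 9 and 0 dbi was then read for the same genes. The 4 compared libraries were not in these means. They were in the same fit, and so in its filter, scaling and estimate of spread. The calls of the contrast are therefore not independent of the choice of genes. The contrast called 11.1% of all genes tested higher and 10.4% lower. Of the genes called higher at 21 dai, 644 (49.2%) were called higher in it and 16 lower, with a median log2 fold change of 1.22. Of the genes called lower at 21 dai, 1060 (69.0%) were called lower in it and 8 higher, with a median of -1.49, where the median over all genes tested was 0.02. The sign was shared by 1078 of 1310 and 1450 of 1537 members. Without 21 dai replicate 1, the number of genes called at 21 dai and in this contrast in the same direction went from 1704 to 648, and without 14 dbi replicate 2 it went to 1009. Without 21 dai replicate 2 it was 1002, and without replicate 1 or 2 of 2 dai 1063 and 1082.

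Levels of these genes at 2 dai lay short of those at 21 dai. The genes were chosen on the 21 dai libraries, which by itself favours a larger difference there. Further movement after 2 dai is thus not shown by these numbers, and the same was not counted over all genes tested. At 2 dai, 699 of the 1310 rises and 907 of the 1537 falls had covered at least 50% of their log2 difference at 21 dai. The median log2 difference from 14 dbi was 1.24 at 2 dai and 2.99 at 21 dai for the genes called higher, and -1.43 and -2.57 for those called lower.

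Among the genes called higher, the 8 with the most reads at 21 dai were taken as the abundant ones, ordered by CPM and not per gene length. Cc03_g09480 had 320.7 and 649.1 CPM at 14 dbi and 11270 and 6985 CPM at 21 dai. Its log2 fold change was 4.23 (SE 1.04, edgeR adjusted p = 0.0247), and the libraries between already lay above those of 14 dbi at 9 dbi (1431 and 2354 CPM) and at 1 dai (3655 and 4382 CPM). Cc03_g09460, separated from it by 1 gene on chromosome 3, had 60.7 and 116 CPM at 14 dbi and 14812 and 2413 CPM at 21 dai, a log2 fold change of 6.61 (SE 1.37, edgeR adjusted p = 0.0114). The 21 dai libraries of this gene differed widely from each other, yet neither overlapped any other library. Cc03_g08920 had 181 and 197 CPM at 14 dbi, 2245 and 2536 CPM at 1 dai and 3602 and 7191 CPM at 21 dai (log2 fold change 4.84, SE 0.95, edgeR adjusted p = 0.00873). Its neighbour Cc03_g08930 had 1.46 and 7.25 CPM at 14 dbi, and 6909 and 313 CPM at 21 dai (9.67, SE 2.09, edgeR adjusted p = 0.0141). In that gene 2 dai replicate 1, at 1250 CPM, lay above 21 dai replicate 2. In these 4 genes of chromosome 3 all libraries of 1 and 2 dai lay above both 14 dbi libraries. Each also had at least 1 pretreatment point above them, though not the same point in all. Cc03_g09480 had 183 CPM in 0 dbi replicate 1 and Cc03_g08920 had 175 CPM in 9 dbi replicate 2, each below both 14 dbi libraries. None of the 4 was called at 9 or 0 dbi. The calls of all 4 at 21 dai were not stable. With each library left out in turn the edgeR adjusted p rose to 0.123 for Cc03_g09480, which lost the call without any one of the 4 compared libraries and in a fit of those 4 alone. It rose to 0.0709 for Cc03_g09460 and 0.0780 for Cc03_g08930, which lost it without either 14 dbi library or without 21 dai replicate 1, and to 0.0601 for Cc03_g08920, which lost it without either 14 dbi library. The last 3 also lost it with only the 8 libraries of low share of poorly mapped reads.

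In the other abundant genes called higher, every library up to 2 dai lay far below those of 21 dai. Cc05_g00770 had 111 and 46.3 CPM at 14 dbi, 26.4 and 21.3 CPM at 1 dai, 71.7 and 51.7 CPM at 2 dai, and 3793 and 6258 CPM at 21 dai. Its log2 fold change was 6.0 (SE 0.80, edgeR adjusted p = 0.00157), and the call stood under every alternative. Its neighbour Cc05_g00760 had 0.728 and 0.144 CPM at 14 dbi, at most 5.18 CPM in the 8 libraries between, and 1112 and 5900 CPM at 21 dai (13.11, SE 2.18, edgeR adjusted p = 0.00519). Cc06_g18440 fell before it rose, from 550 and 218 CPM at 14 dbi to 103 and 136 CPM at 1 dai, with 5576 and 4605 CPM at 21 dai (3.73, SE 0.98, edgeR adjusted p = 0.0324). Cc03_g14330 had 19.9 and 4.73 CPM at 14 dbi and 0.379 and 151 CPM at 0 dbi. It had 17.7 and 24.7 CPM at 2 dai, and 4366 and 3513 CPM at 21 dai (8.33, SE 2.16, edgeR adjusted p = 0.0301). In each of these 4 genes both 21 dai libraries lay above all 10 others. The calls of Cc06_g18440 and Cc03_g14330 were lost without any one of the 4 compared libraries, with adjusted p in edgeR of up to 0.181 and 0.164, and that of Cc06_g18440 also without either 1 dai library and in a fit of the 4 compared libraries alone. That of Cc05_g00760 was lost with only the 8 libraries of low share of poorly mapped reads.

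The 8 genes called lower with the most reads at 14 dbi mostly held their level through the pretreatment and lost it within a day of induction. Cc00_g15710, the gene with the most reads of them, had 14463 and 8464 CPM at 14 dbi, 19744 and 16742 CPM at 0 dbi, 504 and 564 CPM at 1 dai, and 133 and 149 CPM at 21 dai. Its log2 fold change was -6.34 (SE 0.81, edgeR adjusted p = 0.00134), and its part in all reads in genes fell from 1.04% to 0.0148%. Cc02_g07500 had 7116 and 1969 CPM at 14 dbi, 8291 and 6775 CPM at 0 dbi, 289 and 316 CPM at 1 dai, and 91.5 and 68.8 CPM at 21 dai (-5.83, SE 0.87, edgeR adjusted p = 0.00241). Both of these calls stood under every alternative. Cc07_g02160 made the deepest fall among the 8, from 3320 and 2964 CPM at 14 dbi to 25.2 and 21.6 CPM at 1 dai and 0.437 and 1.33 CPM at 21 dai (-11.68, SE 1.16, edgeR adjusted p = 0.000568). In all 3 genes every library after induction lay below every library before it.

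Cc07_g10030 declined already in the pretreatment, from 7019 and 4431 CPM at 14 dbi through 2042 and 316 CPM at 0 dbi to 117 and 146 CPM at 1 dai and 10.2 and 13.3 CPM at 21 dai (-8.92, SE 1.35, edgeR adjusted p = 0.00252). Cc00_g14320 had 1374 and 8032 CPM at 14 dbi and was lowest at 1 dai, with 39.1 and 29.2 CPM, before 108 and 214 CPM at 21 dai (-4.87, SE 0.86, edgeR adjusted p = 0.00546). Cc07_g05350 fell in steps, with 6753 and 2123 CPM at 14 dbi, 1123 and 1333 CPM at 1 dai, and 227 and 214 CPM at 21 dai (-4.33, SE 0.75, edgeR adjusted p = 0.00484). For these genes the groups at 14 dbi and 21 dai did not overlap. Leaving out 14 dbi replicate 2, the higher library for Cc00_g14320, took its log2 fold change to -3.09. In the remaining pair 14 dbi replicate 1 stood far above replicate 2. Cc09_g09500 had 9260 and 641 CPM at 14 dbi and 49.7 and 47.4 CPM at 21 dai (-6.67, SE 1.18, edgeR adjusted p = 0.00535), and without 14 dbi replicate 1 its log2 fold change was -3.73 and the call stood (edgeR adjusted p = 0.00649). Cc02_g06420 had 6164 and 860 CPM at 14 dbi, 169 and 282 CPM at 9 dbi, and 854 and 472 CPM at 0 dbi. At 21 dai it had 442 and 199.7 CPM (-3.45, SE 0.85, edgeR adjusted p = 0.0250). Its 0 dbi replicate 1 lay close to 14 dbi replicate 2. Without 14 dbi replicate 1 the log2 fold change of this gene was -1.43. Its call was lost without 14 dbi replicate 1 or either 21 dai library, with an edgeR adjusted p of up to 0.177. Cc09_g09500 lost its call without either 21 dai library (up to 0.0659), and Cc00_g14320 and Cc07_g05350 lost theirs without 21 dai replicate 1 (0.0695 and 0.0574). With only the 8 libraries of low share of poorly mapped reads Cc07_g10030 (edgeR adjusted p = 0.0629), Cc09_g09500, Cc07_g05350 and Cc02_g06420 were not called, and Cc02_g06420 was not called in a fit of the 4 compared libraries alone.

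**Figure D4:**
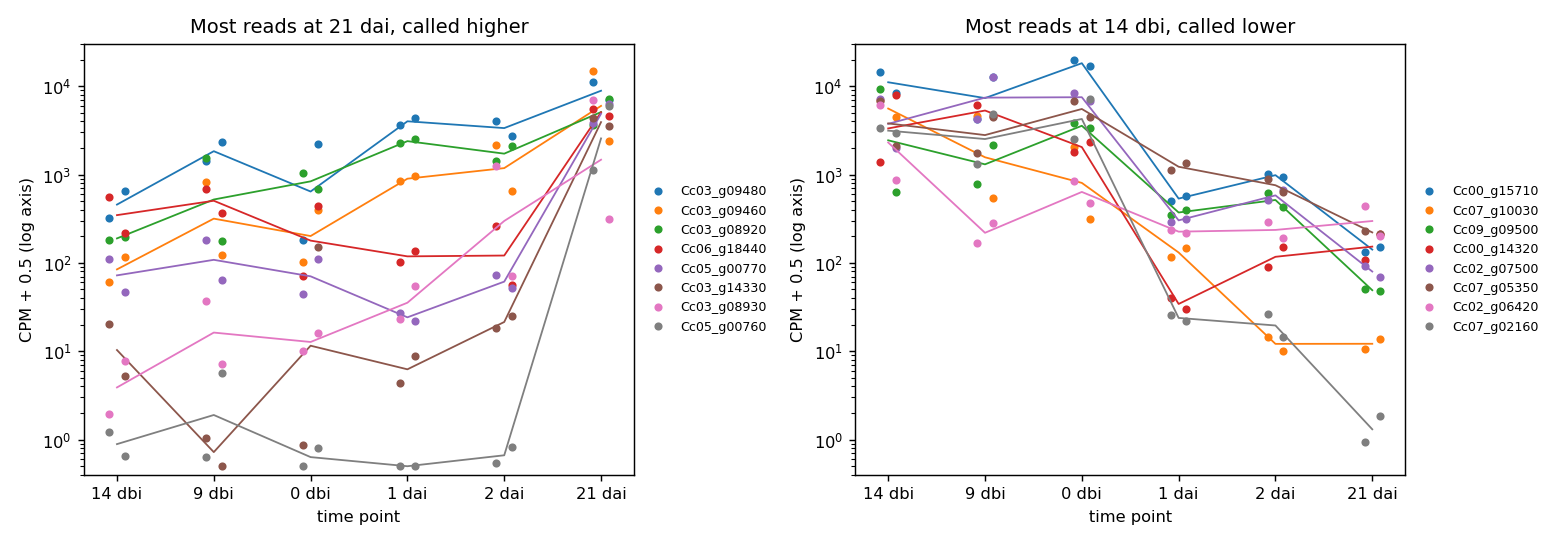
CPM + 0.5 (log axis) of the abundant genes in the 12 libraries, with the 8 genes called higher that had the most reads at 21 dai on the left and the 8 called lower that had the most reads at 14 dbi on the right. Points are libraries and lines join the geometric means of the time points, which are in order and not to scale; on the left Cc05_g00760 and Cc05_g00770 rise only at 21 dai, and on the right Cc00_g15710 stays at 4278 CPM or more before induction and at 1025 CPM or less after it.

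A set of 296 genes, 22.6% of those called higher, was gained, meaning that both 14 dbi libraries lay under 1 CPM. Such genes pass the filter on low counts only through a later point, so their number is a description and no more. Counts at 14 dbi were 0 in both libraries for 94 of them and 3 or fewer in sum for 158. At 21 dai their median was 20.5 CPM, with 230 at 10 CPM or more, 31 at 100 CPM or more and 4 at 1000 CPM or more. As a set they went from 0.00364% and 0.00537% of reads to 1.92% and 2.03%. The gain was late for many of them. Under 1 CPM in all 8 libraries between were 114 of the 296, and 123 showed at none of the 4 points between, while 106 first showed at 1 dai, 41 at 2 dai, 16 at 0 dbi and 10 at 9 dbi. Of all genes tested, 11.5% lay under 1 CPM in both 14 dbi libraries and 9.55% in both 21 dai libraries.

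Next to Cc05_g00760, the gained genes with the most reads were a neighbouring pair on chromosome 2 and a pair of separate genes on chromosome 1. Cc02_g11600 had counts of 1 and 0 at 14 dbi and 23425 and 35194 at 21 dai, a ratio of 58490 with a counting interval of 10497 to 2310300. It had 0.0556 and 1.06 CPM at 1 dai, 2.93 and 6.14 CPM at 2 dai, and 2561 and 1087 CPM at 21 dai. The adjacent Cc02_g11590 had 0.291 and 0 CPM at 14 dbi, 5.79 and 4.33 CPM at 2 dai, and 2068 and 743 CPM at 21 dai (log2 fold change 13.59, SE 1.58, edgeR adjusted p = 0.00121). Both genes of the pair were detected in both libraries from 1 dai on, and in both genes replicate 1 of 21 dai was the higher library. This sets no start, since Cc02_g11600 was near 0 in 1 dai replicate 1 (0.0556 CPM). Cc02_g11590 was detected at 0 dbi too (0.0632 and 0.228 CPM). Cc01_g04380 had counts of 1 and 2 at 14 dbi and 932 and 1101 CPM at 21 dai, a ratio of 14688 (counting interval 5026 to 71228). It had 4.68 CPM in 0 dbi replicate 2, 0 in both 1 dai libraries, and 1.71 and 10.7 CPM at 2 dai. Cc01_g08940 stayed at 0.774 CPM or less in every library up to 2 dai and had 1226 and 611 CPM at 21 dai (11.60, SE 1.08, edgeR adjusted p = 0.000853). All 5 calls stood with any single library left out.

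Lost genes, with both 21 dai libraries under 1 CPM, were fewer, 125 or 8.13% of those called lower. Counts at 21 dai were 0 in both libraries for 13 and 3 or fewer for 32. At 14 dbi their median was 16.8 CPM, with 85 at 10 CPM or more, 11 at 100 CPM or more and 1 at 1000 CPM or more, and they held 0.579% and 0.406% of reads there and 0.00239% and 0.00483% at 21 dai. Their median was 17.3 and 17.1 CPM at 0 dbi, 3.11 and 2.61 CPM at 1 dai, and 0.109 and 0.309 CPM at 21 dai. Lost genes pass the filter on low counts largely through points before 21 dai. Their detection at the points between is thus in part set by the choice of genes, and the numbers are a description. Of the 125, 67 stayed at or above 1 CPM in all 8 libraries between, and none was under 1 CPM in all of them. The fall first showed at 9 dbi for 23, at 0 dbi for 2, at 1 dai for 74, at 2 dai for 6 and at none of the 4 points for 20.

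Cc10_g11890, the lost gene with the most reads, had 1232 and 779 CPM at 14 dbi, 967 and 2924 CPM at 0 dbi, 56.6 and 86.5 CPM at 1 dai, 83.2 and 81.6 CPM at 2 dai, and 0.109 and 0.618 CPM at 21 dai. Its log2 fold change was -11.17 (SE 1.03, edgeR adjusted p = 0.000386). Cc08_g02390 followed the same steps, with 231 and 170 CPM at 14 dbi, 15.5 and 12.0 CPM at 1 dai, 23.1 and 19.1 CPM at 2 dai, and 0.437 and 0.926 CPM at 21 dai (-8.08, SE 0.84, edgeR adjusted p = 0.000629). In both genes the libraries of 1 and 2 dai formed a plateau between those of the plantlets and those of 21 dai. Cc07_g11430 had the smallest adjusted p of the named genes, with 245 and 219.6 CPM at 14 dbi, 122 and 114 CPM at 0 dbi, 4.83 and 4.56 CPM at 1 dai, and 0.328 and 0.957 CPM at 21 dai (-8.33, SE 0.54, edgeR adjusted p = 0.000129). Cc11_g12580 had 376 and 98.5 CPM at 14 dbi, 687 and 124 CPM at 0 dbi, 9.05 and 19.1 CPM at 1 dai, and 0.547 and 0.278 CPM at 21 dai (-9.31, SE 1.32, edgeR adjusted p = 0.00196). Its libraries of 9 dbi, at 28.9 and 55.4 CPM, were below those of 0 dbi. These 4 calls stood with any single library left out. Cc00_g32590 had 305 and 139 CPM at 14 dbi and a count of 0 in both 21 dai libraries, at least 2683-fold lower with 3 counts over both libraries as the floor. Its 9 dbi libraries were far apart, at 0.136 and 218 CPM, and its call (edgeR adjusted p = 0.0250) was lost without 14 dbi replicate 1 or either 21 dai library, at up to 0.133, and with only the 8 libraries of low share of poorly mapped reads.

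Called genes were often next to each other on the chromosomes. By the gene order of the AUK_PRJEB4211_v1 annotation, 252 of the genes called higher (19.2%) had an adjacent gene also called higher, where 10.3% of all genes tested had such a neighbour. Of the genes called lower, 350 (22.8%) had an adjacent gene called lower, against 12.5% of all genes tested. A neighbour called in the opposite direction was seen for 10.4% and 8.85%, where 12.5% and 10.3% of all genes tested had a neighbour of that call. Runs of at least 2 adjacent genes called in one direction numbered 116 upward and 160 downward, runs of at least 3 numbered 15 and 23, and runs of at least 4 numbered 3 and 5. Adjacent genes may be similar copies, and reads that fit several copies may have been left out or split. The sequences were not compared here, so that the values of single genes in a run are uncertain. Over chromosomes 1 to 11 the share called higher lay between 5.87% and 7.57%, and the share called lower between 6.32% and 9.70%. The genes on unplaced scaffolds had 4.70% and 3.56%.

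The runs described next were chosen after their values were seen. The longest upward one held 6 genes on chromosome 5, Cc05_g06120 to Cc05_g06170, with log2 fold changes from 5.04 to 14.8. Cc05_g06170, at its end, had 0 counts in both 14 dbi libraries, 1.39 and 0.53 CPM at 0 dbi, 359 and 358 CPM at 1 dai, 242 and 206 CPM at 2 dai, and 153 and 157 CPM at 21 dai, at least 2161-fold higher than at 14 dbi. Unlike the abundant genes of chromosome 5 described above, this run was at or near its peak at 1 dai. Cc05_g06140 had 0.510 and 0.577 CPM at 14 dbi, 2.15 and 2.97 CPM at 0 dbi, 127 and 175 CPM at 1 dai, and 51.2 and 83.7 CPM at 21 dai (6.93, SE 0.53, edgeR adjusted p = 0.000194). In 5 of its 6 genes both libraries of 0 dbi lay above those of 14 dbi by the rule for a first appearance, the exception being Cc05_g06160. The call of Cc05_g06120 was lost without either 14 dbi library or without 21 dai replicate 1, and the other 5 were kept with any library left out. With only the 8 libraries of low share of poorly mapped reads, Cc05_g06120 and Cc05_g06130 lost their calls.

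A run with the opposite timing lay elsewhere on the same chromosome. Cc05_g00760, Cc05_g00770 and Cc05_g00780 together held 0.0103% and 0.00493% of reads at 14 dbi and 0.570% and 1.54% at 21 dai. Cc05_g00780, the member not yet described, had 1.97 and 0.577 CPM at 14 dbi, 0.611 and 1.66 CPM at 2 dai, and 1386 and 2517 CPM at 21 dai. Its call was lost without 14 dbi replicate 2 and with only the 8 libraries of low share of poorly mapped reads. All 3 genes first showed at 21 dai. Among the downward runs, the 4 genes Cc09_g09010 to Cc09_g09040 had a 14 dbi replicate 1 far above replicate 2 in 3 of them, as in Cc09_g09030 with 4609 and 317 CPM at 14 dbi and 39.6 and 64.9 CPM at 21 dai (-5.56, SE 1.15, edgeR adjusted p = 0.0116, and up to 0.112 without either 21 dai library). Cc09_g09040 was the exception, with 96.9 and 83.3 CPM at 14 dbi, 35.1 and 37.4 CPM at 1 dai, and 23.2 and 28.7 CPM at 21 dai (-1.80, SE 0.27, edgeR adjusted p = 0.00266), and its call stood with any library left out. Cc09_g09010 lost its call in 11 of 22 alternatives, with a replicate block and with a term for low mapping quality among them (edgeR adjusted p of up to 0.480 without a library), which leaves a run of 3. Cc09_g09020 lost its call without 14 dbi replicate 1 or either 21 dai library. With only the 8 libraries of low share of poorly mapped reads, all 4 genes of this run lost their calls.

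**Figure D5:**
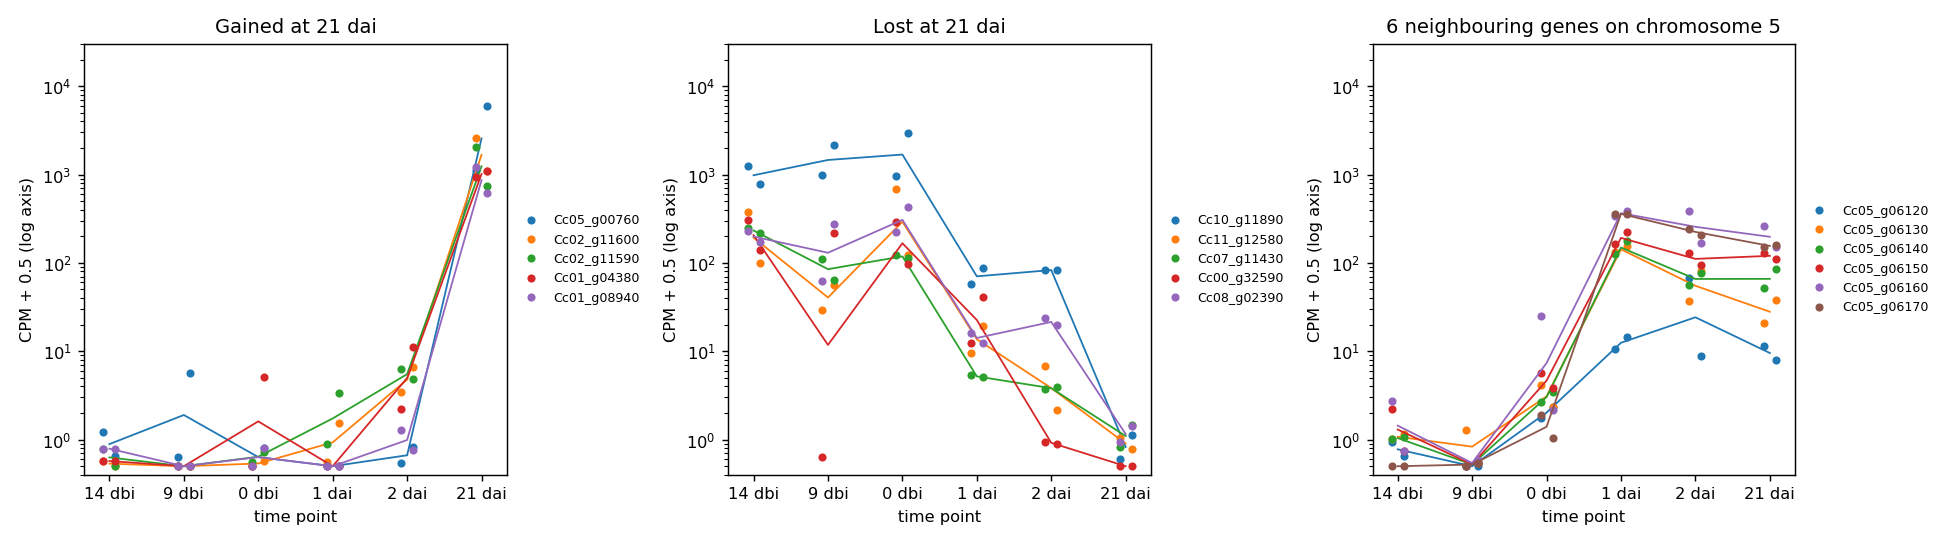
CPM + 0.5 (log axis) in the 12 libraries for the 5 gained genes with the most reads at 21 dai (left), the 5 lost genes with the most reads at 14 dbi (middle) and the 6 neighbouring genes of chromosome 5 (right). Points are libraries and lines join the geometric means of the time points, in order and not to scale; the gained genes are at 10.7 CPM or less up to 2 dai, the lost genes lie lower at 1 dai than at 0 dbi and lowest at 21 dai, where none exceeds 0.957 CPM, and Cc05_g06170 is at 359 and 358 CPM by 1 dai.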

How the data were processed

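RNA was sequenced from 12 single-end libraries, 2 at each of 6 time points. The authors deposited whole-number read counts per gene, not normalized, per library, for 25574 genes and 5 lines of unassigned reads. The submitters' processing notes name HTSeq 0.10.0 for counting, cutadapt 1.14 for trimming and FastQC 0.11.5 for read quality. Strand setting, build and aligner, not given in the sources used here, leave antisense and overlapping genes uncertain. Unassigned lines, 40.1% to 70.8% of the reads listed per library, stayed out of library sizes and tests.

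Counts were fitted in R 4.3.3 with edgeR 4.0.16 (filterByExpr, TMM, quasi-likelihood in its legacy form, time point as the only factor, all 12 libraries, limma 3.58.1). Benjamini-Hochberg adjustment ran over all 20745 genes that passed. The study's methods state no test for the counts. CPM values are scaled by TMM, and differences at the points between are of log2(CPM + 0.5). The quasi-likelihood test reports no standard error (SE). Each SE given is the size of the log2 fold change divided by the square root of the F statistic of the test. The script was tested on simulated data. Counting intervals and floors (3 counts) cover counting error only.

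Named genes were the 8 called higher with the most CPM at 21 dai, the 8 called lower with the most at 14 dbi, and the 5 gained and 5 lost genes with the most. Genes of runs were added afterwards. Gene lists and cell type markers defined by protein motifs were not applied, because no protein sequences were used here. The AUK_PRJEB4211_v1 annotation, to which all 25574 IDs matched, gave chromosome and order only. Members and lists were chosen with earlier results of these data known. Alternatives were DESeq2 1.42.0, other size factors, other filters, the 4 compared libraries alone, a term or a limit (15%) for reads of low mapping quality, the replicate number as a block, each library left out, and, chosen after seeing the data, edgeR's bias-adjusted quasi-likelihood.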

Additional observations from a re-analysis of the deposited data

How the results depend on the processing

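DESeq2 called 2512 genes higher and 2351 lower, edgeR's bias-adjusted form 2325 higher, and the 8 libraries of low share of poorly mapped reads 250 and 407. Higher genes were 46.0% of the calls, 51.7% with DESeq2, 55.4% with the bias-adjusted form and 38.1% with the 8 libraries. With each of the 12 libraries left out, calls ranged from 321 to 1908 higher and from 514 to 1821 lower; where this left 1 library at a point, it was assumed to vary like the others. Genes called at 21 dai and in the same direction at a point between numbered 1209 (457 to 1619 with a library left out, 388 with the 8 libraries, 2512 with DESeq2), and those also called at 1 and 2 dai against 9 and 0 dbi 1704 (648 to 2052, 471 and 2789). Read by calls, 20 genes first changed at 9 dbi, 0 at 0 dbi, 121 at 2 dai and 1638 at 21 dai, in place of 341, 99, 251 and 757; with 50% of the 21 dai difference as the limit, 65 first changed at 0 dbi. Genes called by DESeq2 held 34.2% of reads at 21 dai and 33.9% at 14 dbi, in place of 21.8% and 27.8%. The causes were not tested.

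No label pairs the libraries by replicate number. Of 15 correlations of deviations between time points, 5 were over 0.1 (-0.049 to 0.388), all of them among 14 dbi, 0 dbi, 2 dai and 21 dai, whose replicate 1 had more poorly mapped reads; that of 14 dbi with 21 dai was 0.251. With a replicate block 1291 genes were called higher and 1593 lower, and the 25 named genes stayed called. The 25 named genes kept their direction in every alternative that gave a value, which their choice on the same libraries made likely. Alternatives for the protein-motif lists were not run.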
